A study of Mus musculus with 19 samples.

Results

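The background libraries of a SPEN chromatin immunoprecipitation sequencing (ChIP-seq) study in mouse testis gave 4917 peaks on chromosomes 1 to 19, of 80795 peaks in all 19 libraries of the study. They comprise every peak on those chromosomes in 3 deposited lists: 1524 peaks from the rabbit IgG precipitation of testicular cells, 1971 from testicular input DNA and 1422 from spermatocyte input DNA. SPEN is a large nuclear RNA-binding protein that acts in transcriptional repression. The other 16 libraries used antibodies to SPEN, 3 against its N-terminal part and 9 against an internal part in testicular cells, and 4 against the internal part in spermatocytes.

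Cells came from adult male FVB/N mice aged 10 to 16 weeks. Testicular cells were the mixed cells of dispersed seminiferous tubules, and the spermatocyte population was enriched by sedimentation to at most 80% purity. The IgG library was pooled over all treatments of testicular cells, and each input was an equal mixture of its population's inputs. These treatments were no heat (32 °C) or heat shock at 38 °C or 43 °C for 15 to 30 minutes with up to 4 h of recovery in testicular cells, and no heat or 43 °C for 30 minutes with up to 4 h of recovery in spermatocytes. Every sequenced sample combined 5 to 6 precipitations, per the labels. Each background thus had 1 library, and differences between the 3 lists have no replicate check. The lists hold no gene expression values, so the purity of the 2 cell populations was not checked against marker genes.

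An input library is sheared chromatin sequenced without an antibody, and a non-immune IgG precipitation collects chromatin that sticks to beads or antibody without recognition of a target. Peaks in either mark places where reads pile up in the absence of a specific antibody. Such places are typically found at tandem repeats, ribosomal DNA, satellites and gene families of many near-identical copies, where reads from many copies can align to the few copies that the reference genome holds. Retrotransposons such as LINE-1 and the IAP endogenous retroviruses are young, abundant repeats in the mouse genome.

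Promoter windows that overlapped a background peak give examples of such sequence, at promoters only. Peaks annotated as promoter were 1.05% of IgG peaks, 1.27% of testicular input peaks and 1.13% of spermatocyte input peaks. RefSeq promoter windows (GRCm38.p6, 250 bases before to 50 after a gene's start) numbered 31396, and 21 overlapped an IgG peak, 32 a testicular input peak and 17 a spermatocyte input peak. The windows shown are 1 case each from loci of all 3 lists, of IgG alone, of testicular input alone and of spermatocyte input alone, with a further case at a tandem repeat that had high scores in all 3 lists. No window was chosen for loci of exactly 2 lists. The Gm40237 window also reaches into such a locus, of IgG and spermatocyte input. Its capitals before the lower-case bases are the end of an IgG peak there (score 50.06). Capitals mark bases inside a background peak, and each sequence is given 5′ to 3′ on the gene's strand.
4931408C20Rik, chr1:26687411-26687710, minus strand, in a peak of all 3 lists: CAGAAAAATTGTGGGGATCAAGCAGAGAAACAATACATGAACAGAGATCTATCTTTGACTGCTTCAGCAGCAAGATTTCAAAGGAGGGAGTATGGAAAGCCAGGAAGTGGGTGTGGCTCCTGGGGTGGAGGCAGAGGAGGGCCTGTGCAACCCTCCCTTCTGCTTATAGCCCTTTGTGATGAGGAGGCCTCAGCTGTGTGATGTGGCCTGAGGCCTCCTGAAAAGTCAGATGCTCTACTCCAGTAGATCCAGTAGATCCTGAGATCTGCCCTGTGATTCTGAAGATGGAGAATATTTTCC
Gm40237, chr4:118547156-118547455, plus strand, in peaks of all 3 lists: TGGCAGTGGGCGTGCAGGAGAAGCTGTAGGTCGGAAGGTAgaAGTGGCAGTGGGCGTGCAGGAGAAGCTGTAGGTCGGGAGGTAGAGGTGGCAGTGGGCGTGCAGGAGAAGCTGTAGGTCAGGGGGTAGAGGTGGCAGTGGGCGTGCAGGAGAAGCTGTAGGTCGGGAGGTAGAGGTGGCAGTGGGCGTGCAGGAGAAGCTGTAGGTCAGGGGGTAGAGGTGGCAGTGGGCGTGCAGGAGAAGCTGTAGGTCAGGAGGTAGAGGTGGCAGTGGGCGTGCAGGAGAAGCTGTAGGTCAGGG
1600014C10Rik, chr7:38183537-38183836, plus strand, in a peak of IgG only: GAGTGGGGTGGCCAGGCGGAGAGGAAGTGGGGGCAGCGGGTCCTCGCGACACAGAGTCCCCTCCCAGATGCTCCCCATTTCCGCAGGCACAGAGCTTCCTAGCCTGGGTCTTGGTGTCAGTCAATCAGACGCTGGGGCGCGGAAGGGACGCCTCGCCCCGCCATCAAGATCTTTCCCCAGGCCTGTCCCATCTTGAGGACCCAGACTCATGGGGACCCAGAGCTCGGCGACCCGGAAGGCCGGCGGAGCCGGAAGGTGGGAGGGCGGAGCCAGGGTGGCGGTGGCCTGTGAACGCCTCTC
Sdf4, chr4:155992593-155992892, plus strand, in a peak of testicular input only: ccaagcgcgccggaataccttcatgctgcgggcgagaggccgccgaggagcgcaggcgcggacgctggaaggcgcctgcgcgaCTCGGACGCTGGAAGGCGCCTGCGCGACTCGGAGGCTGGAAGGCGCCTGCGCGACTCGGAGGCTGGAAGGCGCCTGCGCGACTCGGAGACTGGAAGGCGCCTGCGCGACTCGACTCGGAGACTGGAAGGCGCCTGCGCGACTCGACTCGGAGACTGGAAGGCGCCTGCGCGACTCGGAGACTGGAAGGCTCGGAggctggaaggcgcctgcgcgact
Speer4f1, chr5:17475872-17476171, plus strand, in a peak of spermatocyte input only: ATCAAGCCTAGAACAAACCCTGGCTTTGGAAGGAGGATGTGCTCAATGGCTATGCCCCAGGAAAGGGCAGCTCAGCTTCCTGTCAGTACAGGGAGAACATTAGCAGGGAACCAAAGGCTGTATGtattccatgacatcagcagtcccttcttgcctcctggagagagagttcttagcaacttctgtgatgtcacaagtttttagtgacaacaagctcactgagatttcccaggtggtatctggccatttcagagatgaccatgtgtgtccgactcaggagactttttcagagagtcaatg

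The windows at Gm40237 and Sdf4 are tandem repeats. The most frequent 20-base word of the Gm40237 window occurs 7 times in it, and that of the Sdf4 window 8 times. A word repeated at least 5 times was found in 38 of the 31396 promoter windows (0.121%), counted on 1 strand without overlap, and in 98.7% of windows no 20-base word recurred. In the other 3 windows shown no 20-base word recurred either. The GC content of the bases inside peaks was 70.6% at Sdf4, a gene of a calcium-binding Golgi protein, 67.7% at 1600014C10Rik, 62.8% at Gm40237, 51.6% at Speer4f1 and 49.7% at 4931408C20Rik. The median window had a GC content of 53%.

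The score of a peak is the authors' own value from their peak caller, and the lowest listed was 50.02 in IgG and in testicular input and 50 in spermatocyte input. It is used here only to rank peaks within a list. The 4931408C20Rik peaks scored 804 (IgG), 949 (testicular input) and 1012 (spermatocyte input), each within the top 25% of its list. Those at Gm40237 scored 1322, 1435 and 2442 in the same order. The peaks at 1600014C10Rik (69.9 in IgG), Sdf4 (79.8 in testicular input) and Speer4f1 (58.7 in spermatocyte input) lay much lower in theirs. Speer4f1 belongs to a testis-expressed family of glutamate-rich proteins with many copies on chromosome 5.

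The 3 lists covered little of the genome. IgG peaks covered 441 kb, testicular input peaks 666 kb and spermatocyte input peaks 573 kb, which is 0.0179%, 0.0271% and 0.0233% of the 2460 Mb between chromosome starts and the last peak of each autosome. The median width was 189 bp in IgG, 209 bp in testicular input and 232 bp in spermatocyte input. A minority of peaks lay near a transcription start site (TSS): 8.14% of IgG peaks, 9.03% of testicular input peaks and 7.74% of spermatocyte input peaks were within 5 kb of one. Peaks inside genes but farther from a TSS are not in these shares. Read totals are not given in the peak lists, so depth is not known and a longer list cannot be told apart from a more deeply sequenced one.

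Peaks of the 3 lists that shared at least 1 bp were joined into 2812 loci. All 3 lists held 735 of them (26.1%, exact Clopper-Pearson 95% interval 24.5 to 27.8), exactly 2 lists held 513 (18.2%) and a single list held 1564 (55.6%). Such intervals cover counting error only. Among the pairs, 279 loci were in IgG and testicular input, 80 in IgG and spermatocyte input, and 154 in both inputs. Among single lists, IgG alone held 377, testicular input alone 759 and spermatocyte input alone 428.

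**Figure D1:**
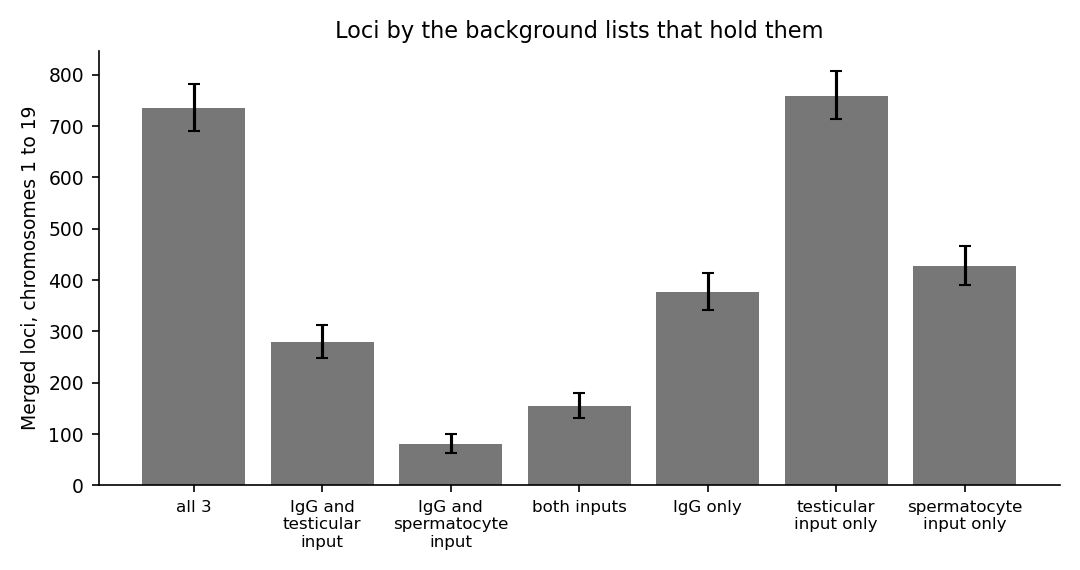
Merged loci on chromosomes 1 to 19 by the background lists that hold a peak there. Bars give the number of loci and error bars the exact 95% binomial interval of each class's share scaled to 2812 loci; the 735 loci of all 3 lists and the 759 of testicular input alone are the 2 biggest classes.

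IgG shared more of its peaks with the input of the same cells than with the other input. Of IgG peaks, 69.4% (67.0 to 71.7) overlapped a testicular input peak and 56.5% (54.0 to 59.0) a spermatocyte input peak. In the other direction, an IgG peak was found at 53.2% of testicular input peaks (50.9 to 55.4) and at 58.6% of those of spermatocyte input (56.0 to 61.2). Between the inputs, 47.1% of testicular input peaks (44.9 to 49.4) overlapped a spermatocyte input peak, and 64.1% of spermatocyte input peaks (61.6 to 66.6) a testicular input peak. These shares depend on list length, since a longer list offers more peaks to overlap. At most 2 peak intervals were identical between any pair of lists.

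Membership followed the score in each list. In the highest 25% by score, 96.9% of IgG peaks, 90.4% of testicular input peaks and 95.5% of spermatocyte input peaks were in loci of all 3 lists. In the lowest 25% these shares were 12.1%, 7.30% and 18.0%, in the same order of lists. The lowest 25% ended at a score of 60.6 in IgG, 58.5 in the testicular input and 61.4 in the spermatocyte input, close to the lowest score listed. Peaks of a single list thus mostly lay near the lower end of the scores.

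**Figure D2:**
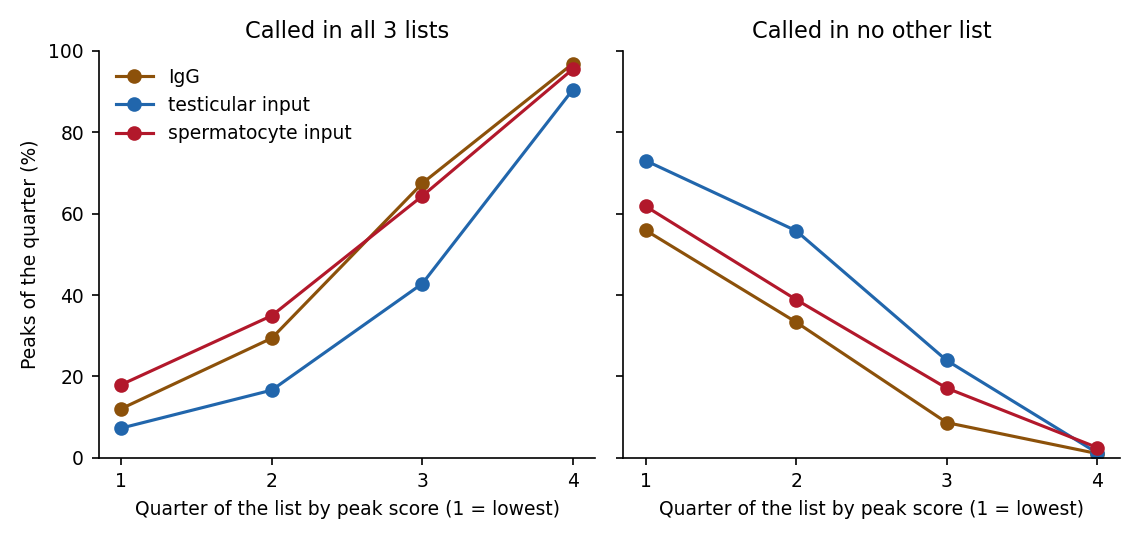
Share of peaks in loci of all 3 lists (left) and in loci of no other list (right), in percent, against 4 equal groups of the list by peak score (4 is the highest), for IgG, testicular input and spermatocyte input. All 3 lines climb on the left, to 96.9%, 90.4% and 95.5% in group 4, and drop on the right to 1.05%, 1.22% and 2.54%.

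Median scores and widths gave the same order. IgG peaks in loci of all 3 lists had a median score of 158 and a median width of 224.5 bp, against 58.2 and 160 bp for IgG peaks alone. For testicular input the medians were 175 and 234.5 bp in loci of all 3 lists, against 59.4 and 190 bp alone. For spermatocyte input they were 141 and 238 bp, against 61.0 and 215 bp alone. At the 673 loci with exactly 1 peak in each list, Spearman's rho between scores was 0.87 for IgG and testicular input, 0.78 for IgG and spermatocyte input and 0.82 for the 2 inputs. These are descriptions across loci that share their sequence and repeats between lists.

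Tandem repeats and ribosomal sequence made up much of what all 3 lists shared. In the counts of loci, a locus counted for a repeat if any of its peaks carried it. Loci of several lists thus had more chances to be counted than loci of 1 list, and could count for more than 1 repeat. The hexamer repeat (TTAGGG)n, the unit of mammalian telomeres, annotated 132 IgG peaks, 134 testicular input peaks and 120 spermatocyte input peaks. It accounted for 126 of the 735 loci of all 3 lists (17.1%), against 3 of 377 loci of IgG alone, 4 of 759 of testicular input alone and 1 of 428 of spermatocyte input alone. All simple repeats together were found at 29.5% of the loci of all 3 lists (26.2 to 33.0). By peaks in those loci, they annotated 194 of 784 in IgG, 184 of 774 in testicular input and 183 of 756 in spermatocyte input. They made up 9.28% of loci of IgG alone, 4.61% of testicular input alone and 11.7% of spermatocyte input alone.

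Repeats annotated as small or large subunit ribosomal RNA were found at 69 IgG peaks, 68 testicular input peaks and 62 spermatocyte input peaks. They were 59 of 735 loci of all 3 lists (8.03%), against 2, 4 and 0 loci of IgG alone, testicular input alone and spermatocyte input alone. The major satellite GSAT_MM, which forms mouse pericentromeric heterochromatin, annotated 23, 24 and 23 peaks of IgG, testicular input and spermatocyte input, and 22 of them in each list were in loci of all 3. SYNREP_MM repeats annotated 14 peaks in each list, every one in loci of all 3. For these repeats the 3 lists differed by few peaks.

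LTR and LINE elements had the opposite distribution. LTR elements made up 7.62% of loci of all 3 lists (5.81 to 9.78), against 21.2% of loci of IgG alone (17.2 to 25.7), 20.0% of testicular input alone (17.2 to 23.1) and 10.7% of spermatocyte input alone (7.98 to 14.1). LINE elements made up 13.7% of loci of all 3 lists, against 22.0%, 21.3% and 26.6% in the same 3 single-list classes. SINE elements, short retrotransposons, were found at 12.2% of loci of all 3 lists (9.96 to 14.8) against 7.16% (4.77 to 10.2), 5.80% (4.24 to 7.70) and 4.91% (3.06 to 7.40) in those classes. By peaks the SINE contrast was smaller. In loci of all 3 lists they annotated 71 of 784 IgG, 75 of 774 testicular input and 70 of 756 spermatocyte input peaks. In loci of a single list these counts were 27 of 377, 44 of 759 and 21 of 428. IAP elements, endogenous retroviruses within the LTR class, were in 1 of 735 loci of all 3 lists. They were in 25 of 377 loci of IgG alone (6.63%), 38 of 759 of testicular input alone (5.01%) and 5 of 428 of spermatocyte input alone (1.17%).

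**Figure D3:**
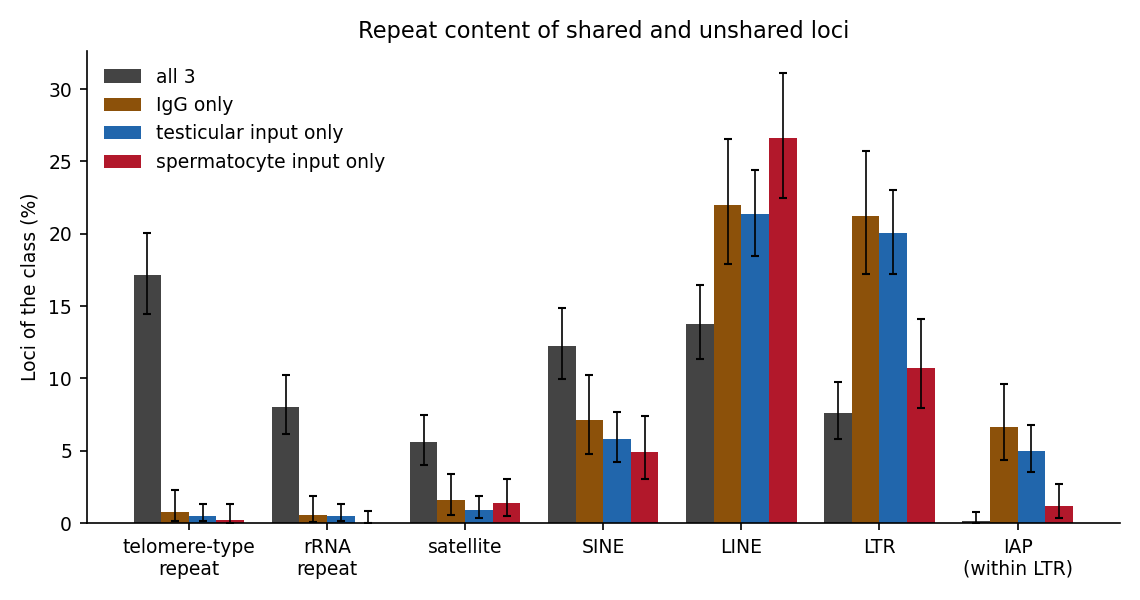
Share of loci, in percent, with any peak annotated as each repeat class, for loci of all 3 lists and loci of IgG, testicular input or spermatocyte input alone. Error bars are exact 95% binomial intervals. Telomere-type (TTAGGG)n repeats stand at 17.1% in loci of all 3 lists and below 1% in each single-list class, whereas LTR elements stand at 7.62% in loci of all 3 lists and at 21.2%, 20.0% and 10.7% in the single-list classes.

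The strongest loci of all 3 lists were repeats and copies. The highest score of any background peak was 3221, in testicular input, at a small subunit rRNA repeat upstream of Gm8579 on chromosome 6 (3200735 to 3201671). The score there was 3181 in IgG and 2600 in spermatocyte input. A (TG)n repeat near Gm6639 on chromosome 3 had 2660 in IgG, 3166 in the testicular input and 2048 in the spermatocyte input. An intergenic locus of 4723 bp near Col19a1 on chromosome 1 (24611534 to 24616256), a region known as a nuclear copy of mitochondrial DNA, had 1252, 2740 and 3100. Peaks in intron 1 of Aida at an RLTR33 element and in intron 1 of E030030I06Rik at a B1 element had 3100 in each list. Further peaks had the same score of 3100, among them peaks at the GSAT_MM satellite in each list. Loci tied at this score were taken by chromosome and start, so those named are not stronger than the others tied. SPEN antibody libraries held these loci too, the Col19a1 locus in 15 of 16 and the other 4 in all 16.

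Loci were concentrated in a few gene-family regions. Of 1138 windows of 1 Mb with any peak, the 10 with the most peaks held 14.6% of IgG peaks, 21.0% of testicular input peaks and 22.7% of spermatocyte input peaks. The gene with the most loci was Mir6388, a microRNA gene on chromosome 12, to which the authors' HOMER annotation assigned 95 loci between 115119436 and 115869184. These held 35 IgG peaks, 53 testicular input peaks and 59 spermatocyte input peaks. Of its 95 loci, 10 were in all 3 lists, 7 in IgG alone, 20 in testicular input alone and 30 in spermatocyte input alone.

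The next genes were predicted or zinc finger genes of duplicated regions. Gm21119 was assigned 50 loci and 6820431F20Rik 35 on chromosome 8, with 37 and 27 testicular input peaks against 14 and 19 spermatocyte input peaks. On chromosome 13, 2410141K09Rik had 44 loci, the zinc finger gene Zfp369 had 40 and Gm10324 had 39. Gm10033 had 35 loci on chromosome 8, and Gm5114 on chromosome 7 and Olfr161, an olfactory receptor gene, on chromosome 16 had 22 each. Olfr161 stood apart among them in that 13 of its 22 loci were in all 3 lists. Mir7094-2 on chromosome 12 had 21 loci. All of these are HOMER assignments, and few lay close to the gene named. The counts within 5 kb of its start were 3 for Mir6388, 2 each for Gm21119 and 2410141K09Rik, and 0 for the others. Copies in such regions are near-identical, and which copy a read came from is uncertain.

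Lists of genes were counted by peaks within 5 kb of a start site. The lists were chosen with earlier results of these data known, and none was tested. Over all 47042 genes on chromosomes 1 to 19, 0.217% had such a peak in IgG, 0.291% in the testicular input and 0.174% in the spermatocyte input. In the Speer and alpha-takusan related testis genes, 9 of 29 had one: 5 in IgG, 9 in the testicular input and 5 in the spermatocyte input. Among genes chosen as multicopy or collapsed in the assembly, 4 of 23 had one, with 3 in IgG, 4 in the testicular input and 3 in the spermatocyte input. Of abundant or repeated RNA genes, 1 of 24 did. None of 36 meiotic prophase genes, 32 spermatid genes or 23 constitutively expressed genes had a background peak within 5 kb in any of the lists. At the shares over all genes, lists this short would mostly have none.

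The Speer genes lay mostly on chromosome 5, where copies are arranged in clusters. Speer4cos had peaks of all 3 lists around its start, with scores up to 192 in IgG, 319 in the testicular input and 447 in the spermatocyte input. Speer4e had a locus of all 3 lists (95.1, 75.3 and 64.2 in the same order) and 2 peaks of testicular input alone. Speer4f1 had a promoter peak in both inputs, 95.2 in testicular input and 79.4 in spermatocyte input, beside the spermatocyte input peak at its promoter window. Speer4b had 1 peak of IgG alone (50.6) and 1 of testicular input alone (54.2). Of the other members with a peak, Speer4c had peaks in all 3 lists, Gm17019 in both inputs, Speer8-ps1 in IgG and testicular input, and Speer4d and Speer5-ps1 in testicular input alone. Reads are easily split between these copies, so the gene each peak is assigned to is uncertain.

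Other members with a peak were few. Sfi1, a centrosome gene with known extra copies, had peaks of all 3 lists on chromosome 11, up to 65.0 in IgG, 181 in the testicular input and 230 in the spermatocyte input within 5 kb of its start. Rgs20, a regulator of G protein signalling, had 95.4 in IgG, 73.5 in the testicular input and 92.4 in the spermatocyte input. Tmem267, listed in the deposited tables as Gm7120, had 78.7 in IgG, 126 in the testicular input and 137 in the spermatocyte input at its promoter. Sp110 had a promoter peak of testicular input alone (80.4). Rn4.5s, the gene of a small rodent RNA present in many copies, had 1 IgG peak (69.9), 4 testicular input peaks and 7 spermatocyte input peaks within 5 kb.

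IgG and testicular input came from the same cells and differed in the precipitation. Of 36 annotation classes and repeat families, 1 had intervals that did not overlap between these lists: simple repeats annotated 17.7% of IgG peaks (15.8 to 19.7) against 13.6% of testicular input peaks (12.1 to 15.2). The counts were nearly equal, at 270 of 1524 IgG peaks and 268 of 1971 testicular input peaks. The intervals were not adjusted for the number of features. The pentamer repeat (GAATG)n annotated 6 IgG peaks, with scores of 89.6 to 152, and no input peak. All 6 were in loci of IgG alone, on chromosomes 1, 2, 6, 9, 11 and 17, and the strongest was in intron 10 of Dpp9, a gene of a dipeptidyl peptidase. This repeat was chosen after its values were seen.

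The strongest loci of IgG alone were single places. The highest score was 1000 at Pmaip1, a gene of a pro-apoptotic BH3 protein (NOXA), where a peak of 1684 bp covered intron 2 on chromosome 18 (66460947 to 66462630). SPEN libraries held that locus in 4 of 16 cases. The second was a (CACTC)n repeat near 4930517M08Rik (315, in 7 of 16 SPEN libraries), and the third a (CTGTG)n repeat near A730018C14Rik (241, in 11 of 16). An RLTR45-int element near Ugt3a1 (184) was held by 9 SPEN libraries and the Dpp9 repeat (152) by 3.

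Loci of IgG and testicular input without spermatocyte input held LTR elements in 11.1% of cases (7.68 to 15.4), against 7.62% of loci of all 3 lists (5.81 to 9.78), and these intervals overlapped. The LTR share was 18.2% in loci of both inputs without IgG and 15% in those of IgG and spermatocyte input. LINE elements were found at 20.8% of the loci of IgG and testicular input. The strongest of these loci lay in intron 1 of a (agouti, the coat colour gene) on chromosome 2, a peak of 4257 bp in testicular input at an ERVB4_1-I_MM-int element. Its score was 144 in IgG and 404 in testicular input. The C57BL/6 reference allele of agouti is known to carry a retroviral insertion. An RLTR45-int element near Tdpoz1 had 370 in IgG and 399 in testicular input. The next loci were intron 9 of Atp6v0a2, a proton pump subunit gene (54.8 in IgG, 358 in testicular input), a (TAGA)n repeat near Gpm6a (208 and 319) and the last exon of Tmcc1 (299 and 294).

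Windows of 1 Mb with at least 5 testicular input peaks and at most 1 IgG peak numbered 5. They held 32 testicular input peaks against 3 IgG peaks, and there was no window of the opposite kind. They lay near Ang6 and Ear12 and near Gm3696 on chromosome 14, near BC048507 on chromosome 13, near Mrgpra3 on chromosome 7 and near Secisbp2l on chromosome 2. The median score of those testicular input peaks was 60.2, and 2 of the 32 reached 100. These windows were picked by the counts given.

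The SPEN libraries of testicular cells were not used to make the classes and were compared at them. The IgG and testicular input libraries were pooled over treatments of the same cells. The SPEN libraries are therefore not an independent check of those lists. They were of different heat shock states and were treated as exchangeable. Loci of IgG alone were held by 14.6% to 41.1% of cases in the 12 testicular libraries, with a median of 17.6%. Loci of testicular input alone were held in 11.3% to 39.7%, with a median of 14.8%. The ranges overlapped almost fully. Within libraries, the share was higher for loci of IgG alone in 10 of 12, by 1.70 ± 2.57 percentage points (SD, n = 12), with a two-sided exact sign-flip permutation p of 0.0435.

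That difference rested on the choice of libraries. With each library left out in turn it ranged from 1.32 to 2.10 points, and its exact permutation p ran from 0.0117 to 0.0869 and was below 0.05 in 3 of 12 runs. Those 3 were the runs without N-terminal 38 °C 30 minutes with 2 h recovery, without internal 38 °C 30 minutes, and without internal 43 °C 30 minutes with 4 h recovery. When 50% of the shorter peak had to overlap, the difference was 1.35 points (exact permutation p = 0.104). With background peaks of score at least 100 it was 9.78 points (exact permutation p = 0.00879). That setting formed the classes anew from those peaks, so its loci of IgG alone can hold a weaker input peak. It is thus a difference of another set of loci.

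**Figure D4:**
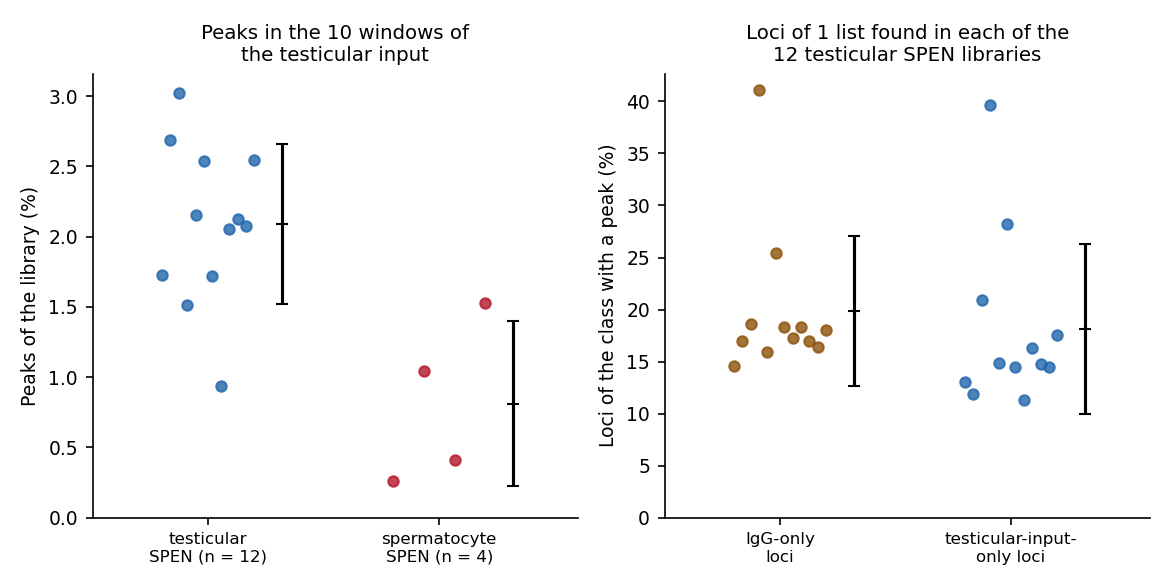
Left, share of each SPEN library's autosomal peaks, in percent, that fell in the 10 windows of 1 Mb with at least 5 testicular input and at most 1 spermatocyte input peaks, for 12 testicular and 4 spermatocyte libraries. Right, share of loci of IgG alone and of testicular input alone that held a peak in each of the 12 testicular SPEN libraries; points are libraries, bars the mean ± SD, and the testicular points on the left (0.94% to 3.02%) overlap the spermatocyte points (0.26% to 1.53%) only at their lower end.

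The 2 inputs differed in the shares of peaks at retroviral and simple repeats. LTR elements annotated 12.8% of testicular input peaks (11.3 to 14.3) against 9.14% of spermatocyte input peaks (7.69 to 10.8). IAP elements annotated 47 testicular input peaks (2.38%, 1.76 to 3.16) against 7 spermatocyte input peaks (0.492%, 0.198 to 1.01), and their internal part IAPEz-int 31 against 6. These IAP peaks were weak, with a median score of 56.5 in testicular input and 52.9 in spermatocyte input, near the lowest listed. Of them, 38 of 47 and 5 of 7 were in loci of that input alone. Simple repeats went the other way by share, at 13.6% of testicular input peaks against 18.3% of spermatocyte input peaks (16.3 to 20.4). Their counts were close, at 268 testicular input peaks and 260 spermatocyte input peaks. IgG had 35 IAP peaks (2.30%), close to the testicular input. The 5 features whose intervals did not overlap between the inputs, of 36, were these 4 and (TAGA)n repeats.

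The tetramer repeat (TAGA)n annotated 1 testicular input peak against 13 spermatocyte input peaks (0.914%, 0.488 to 1.56). All 13 were in loci of spermatocyte input alone, with scores of 51.9 to 114, spread over 10 chromosomes and including introns of Ktn1, Dach1 and Adcy9. The single testicular input peak was the one near Gpm6a. The related repeat (CAGA)n annotated 3 testicular input peaks against 9 spermatocyte input peaks, with overlapping intervals. These units were chosen after their values were seen.

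SPEN libraries of the 2 cell populations were compared for the same 5 features. In this and the later comparisons of the populations, the testicular libraries included the N-terminal antibody and heat states not used in spermatocytes. IAP elements made up 0.801% to 8.28% of peaks in testicular SPEN libraries, and 0.196%, 1.30%, 1.24% and 8.37% in the untreated, 43 °C, 2 h recovery and 4 h recovery libraries of spermatocytes. For (TAGA)n the values were 0% to 0.269% in testicular libraries, and 1.50%, 0.652%, 0% and 0.0110% in the 4 spermatocyte libraries in that order. The untreated spermatocyte library stood highest, and 2 of its 3 heat-shocked counterparts overlapped the testicular ones. The two-sided exact permutation p for (TAGA)n was 0.0423, or 0.212 adjusted (Benjamini-Hochberg) over the 5 features. For the other 4 the adjusted p was 0.742 to 0.934 by the same exact permutation test.

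The strongest loci of a single input were unlike each other. In testicular input alone they were the promoter of C920006O11Rik (321), intron 1 of Sfxn2, a mitochondrial carrier gene (232), and intron 3 of Wdr63, a gene of an axonemal dynein chain (171). A locus near Zfp386 (155) and an ERVB4_1-I_MM-int element near Zfp935 (144) followed. The Wdr63 locus was also in all 16 SPEN libraries, and the other 4 were in 6 to 8. In spermatocyte input alone, the strongest lay near Nt5e (461), at 2 places in intron 33 of Akap9, a centrosomal anchoring protein gene (307 and 181), in intron 46 of Lyst, a lysosomal trafficking gene (278), and at a (CATAG)n repeat near Nup93 (181). SPEN libraries held the Lyst locus in 13 of 16 cases and the others in 6 or 7.

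Loci of both inputs without IgG were led by an intergenic place near Ccnh on chromosome 13 (85127058 to 85127209), which had 331 in testicular input and 216 in spermatocyte input. It was held by 1 of 16 SPEN libraries, whereas loci near Pop4 (221 and 102) and Rn4.5s (218 and 176), in intron 1 of 4931408C20Rik (199 and 138) and in intron 6 of Gm21119 (154 and 192) were held by 14 to 16. Loci of IgG and spermatocyte input were led by a place near N6amt1 on chromosome 16, with 164 in IgG and 988 in spermatocyte input. The other 4 of that class, near Ubtfl1, Zfp386, Smarca5-ps and Gm8882, had scores of at most 161. They were held by 6 to 12 SPEN libraries, and the N6amt1 locus by 14.

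By chromosome, chromosome 14 differed most between the inputs. It held 129 testicular input peaks (6.54%, 5.49 to 7.73) against 46 spermatocyte input peaks (3.23%, 2.38 to 4.29), and 5.51% of IgG peaks. Chromosome 12 had a lower share in testicular input, at 6.34% (5.31 to 7.51) against 9.07% (7.63 to 10.7) in spermatocyte input. Its counts were close, at 125 testicular input peaks and 129 spermatocyte input peaks. The intervals of the other 17 chromosomes overlapped.

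**Figure D5:**
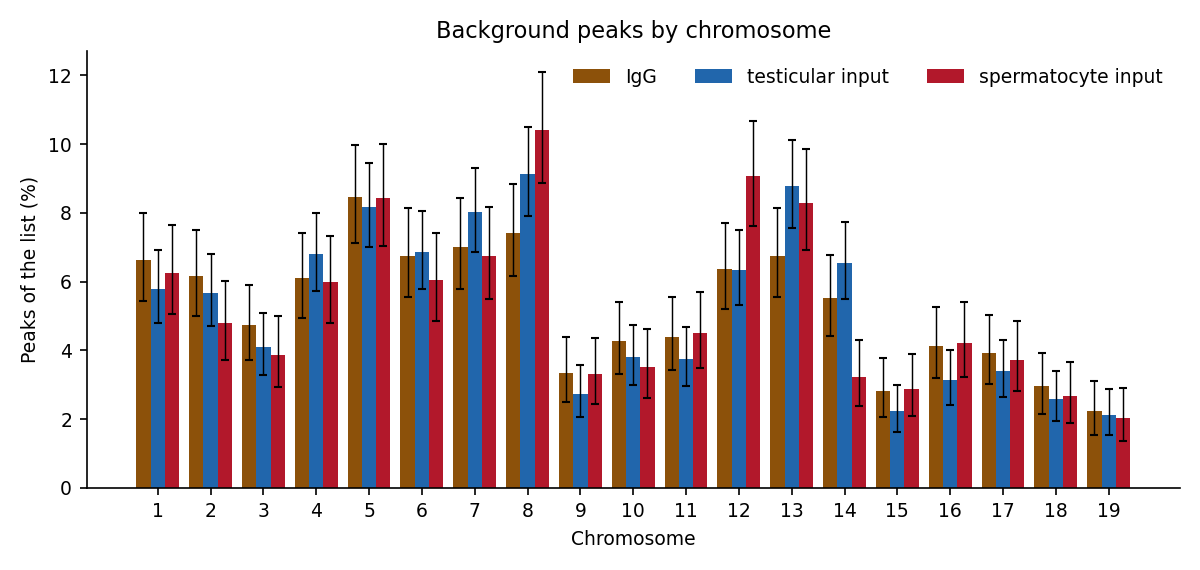
Share of each background list's autosomal peaks, in percent, on each of chromosomes 1 to 19, for IgG, testicular input and spermatocyte input; error bars are exact 95% binomial intervals. On chromosome 14 the testicular input stands at 6.54% and the spermatocyte input at 3.23%.

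The SPEN libraries, called separately, were compared for these 2 chromosomes. The inputs were mixed over treatments of the same cell populations, so the comparison is not an independent check of the inputs. Chromosome 14 held 4.16% to 5.86% of peaks in the 12 testicular SPEN libraries, with a median of 5.38%. In spermatocytes it held 3.86% untreated, 3.85% at 43 °C, 3.31% after 2 h and 5.11% after 4 h of recovery. The groups overlapped through the 4 h library alone. The testicular mean was higher by 1.22 percentage points, with an exact permutation p of 0.00275 and an adjusted p of 0.0174 over 19 chromosomes. The input difference of chromosome 12 was not seen in the SPEN libraries. Its mean share was 6.97% in testicular and 6.90% in spermatocyte libraries (exact permutation p = 0.876, adjusted 0.877). Of the 19 chromosomes, 4 passed an adjusted p of 0.05 (21.1%). Chromosomes 6, 7 and 14 were higher and chromosome 17 was lower in testicular SPEN libraries. Chromosome 6 did not pass with the internal antibody only, where chromosome 13 did, nor without the longest list of each population. With peaks of score at least 100, chromosome 10 passed and none of these 4 did. The chromosome test was added after the input lists were seen.

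The chromosome 14 peaks lay in a few gene clusters. Windows of 1 Mb with at least 5 testicular input and at most 1 spermatocyte input peaks numbered 10, and 8 of them were on chromosome 14. These 8 held 70 testicular input peaks against 2 spermatocyte input peaks, and 34 IgG peaks. Genes near them were the predicted genes Gm3264, Gm3636, Gm10406 and Gm10377, and Ear10, Ear12 and Ang6, members of the secreted ribonuclease family of eosinophils and angiogenins. The window from 6 Mb held 11 IgG, 16 testicular input and 1 spermatocyte input peaks, and the window from 4 Mb 7, 15 and 1. The windows from 43 Mb and 44 Mb held 8 and 9 testicular input peaks and no spermatocyte input peak.

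Outside chromosome 14 the 2 windows were near Mrgpra3 and Mrgpra4, sensory neuron receptor genes, on chromosome 7 (6 testicular input peaks and 0 spermatocyte input peaks), and near Secisbp2l and Fgf7 on chromosome 2 (5 and 0). Nearly all of these peaks were weak. The 81 testicular input peaks of the 10 windows had a median score of 60.5, and 5 of them reached 100. Of the 81, 69 were in loci of testicular input alone, against 38.5% of the whole testicular input list. The rule of at most 1 spermatocyte input peak favours such loci. A repeat annotation was carried by 24 of the 81. In the whole testicular input list, LINE elements annotated 17.6% of peaks, simple repeats 13.6%, LTR elements 12.8% and SINE elements 7.97%. The opposite rule found 1 window, on chromosome 5 near Cyp51 and Akap9, with 1 testicular input peak and 5 spermatocyte input peaks.

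In the SPEN libraries, which share cell populations and treatments with the pooled inputs, the same windows separated the cell populations in part. The 10 windows held 0.94% to 3.02% of peaks in testicular libraries, with a median of 2.10%. In spermatocytes they held 0.26% untreated, 1.04% at 43 °C, 0.41% after 2 h and 1.53% after 4 h of recovery. Of the 12 testicular libraries, 10 were above the highest spermatocyte library. The mean was 2.09 ± 0.57% in testicular (SD, n = 12) and 0.81 ± 0.59% in spermatocyte libraries (SD, n = 4), with an exact permutation p of 0.00275, or 0.00366 adjusted over 4 window sets.

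The chromosome 14 windows carried this difference. They held 1.91 ± 0.54% of testicular and 0.70 ± 0.53% of spermatocyte SPEN peaks (exact permutation p = 0.00165, adjusted 0.00366). The 2 windows elsewhere held 0.18 ± 0.12% and 0.11 ± 0.11% (exact permutation p = 0.297). The single window near Akap9 went the other way, with 0.060 ± 0.052% of testicular and 0.27 ± 0.13% of spermatocyte SPEN peaks (exact permutation p = 0.00275, adjusted 0.00366). That window held few peaks, 4, 6, 5 and 9 in the untreated, 43 °C, 2 h and 4 h recovery spermatocyte libraries. The groups overlapped, at 0% to 0.122% in testicular and 0.0989% to 0.391% in spermatocyte libraries. It was not tested with libraries left out or at a score of at least 100. The smallest p that 12 against 4 libraries allow is 0.000549. The differences for chromosome 14 and for the 10 windows ended when only peaks with a score of at least 100 were counted: chromosome 14 then differed by 0.22 points (adjusted exact permutation p = 0.705) and the 10 windows by 0.072 points (p = 0.925).

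Whether loci of a single input were held more often by SPEN libraries of the same cells was tested as well, and the difference did not pass. The share of loci of testicular input alone minus that of loci of spermatocyte input alone was 0.23 ± 9.70 percentage points in testicular SPEN libraries (SD, n = 12) and -4.88 ± 11.9 in spermatocyte ones (SD, n = 4). The values ran from -8.14 to 24.2 in testicular and from -17.1 to 11.2 in spermatocyte libraries, and the groups overlapped. The difference of 5.12 points had a two-sided exact permutation p of 0.403. The highest value in each population was that of its longest list, untreated internal-antibody testicular cells with 27197 peaks and spermatocytes after 4 h of recovery with 9101. The other 14 lists had 1275 to 2521 peaks. Without the 2 longest lists the difference was 8.30 points (exact permutation p = 0.0797). With all chromosomes and contigs, where the Y held 678 testicular input peaks against 45 spermatocyte input peaks, it was 16.4 points (exact permutation p = 0.00385).

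Loci of all 3 lists were found in most SPEN libraries. The 12 testicular libraries held 72.4% to 95.4% of the 735, with a median of 91.8%, and the 4 spermatocyte libraries held 91.4% untreated, 91.2% at 43 °C, 90.7% after 2 h and 85.7% after 4 h of recovery. The 3 N-terminal libraries were lowest, at 73.5%, 72.4% and 75.1%, and every internal-antibody library held at least 83.8%. Loci of 2 lists lay between those of all 3 and of 1. Those of IgG and testicular input were held at a median of 55.9% in testicular and 43.0% in spermatocyte libraries, and those of both inputs at 45.1% and 47.4%.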

How the data were processed

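ChIP-seq peaks of 19 mouse testis libraries were used, 3 of them background libraries (IgG, testicular input and spermatocyte input). Bowtie2, SAMtools and HOMER were used on mm10, per the submitters' processing notes. Peak names contain MACS and HOMER added the annotation, per the file headers, and each library had its own call. For the caller, the version, threshold and control are not given in the sources used here. Each peak score and the distance to the TSS (in bp) are the authors' deposited values, and scores were only ranked within a list. Depth is unknown, since peak lists give no read totals, and intervals cover counting error only.

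Groups came from the labels, with 1 library each. Peaks on chromosomes 1 to 19 were joined into loci by shared bases (at least 1 bp) with Python 3.11.15, numpy 2.4.6, pandas 2.3.3 and SciPy 1.17.1, and figures were drawn with matplotlib 3.10.9. Class merging and permutation tests were tested on simulated data. Shares carry exact Clopper-Pearson 95% intervals. Tests were two-sided exact permutation tests over SPEN libraries, with Benjamini-Hochberg adjustment, and with pooled libraries p-values measure only the spread between them. Named were the 5 loci of highest score in each of 7 classes (ties taken by chromosome and start), the 10 genes with the most loci, and members of 6 gene lists with a peak within 5 kb of a TSS. Members and lists were chosen with earlier results of these data known. Repeat units, 1 Mb windows and chromosomes were tested or named after the data were seen. Alternatives were overlap of 50% of the shorter peak, a score of at least 100, equal list length, all chromosomes, internal antibody only, and leaving out libraries.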

Additional observations from a re-analysis of the deposited data

Results flagged for a closer look

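Of 22 groups of library values checked for a value far from the others, 3 were marked, where chance marks about 1 in 20. Spermatocytes after 4 h of recovery held 85.7% of the loci of all 3 background lists, apart from 90.7% to 91.4% in the other 3 spermatocyte SPEN libraries. Untreated testicular cells with the internal antibody held 83.8% of them, apart from 90.1% to 95.4% in the other 8 internal-antibody testicular libraries. The same library held 41.1% of the loci of IgG alone, against 15.9% to 25.5% in the other 8. These are the 2 longest SPEN lists, and the part of list length in these values was not tested.

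Background peaks outside chromosomes 1 to 19 were not part of the comparisons. On the X chromosome there were 103 IgG peaks, 138 testicular input peaks and 57 spermatocyte input peaks. On unplaced contigs there were 118 IgG peaks, 137 testicular input peaks and 117 spermatocyte input peaks. The lists give no level that separates such peaks from noise.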

How the results depend on the processing

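Replicate numbers gave no pairing between groups of libraries, because each group had 1 library, whose number only names it. Each of the 4 spermatocyte SPEN libraries had an internal-antibody testicular library of the same heat state, but a comparison paired by state was not tested. The tests between cell populations set all 12 testicular libraries against these 4. The 12 included N-terminal libraries and heat states not used in spermatocytes, so antibody and heat state differed along with the cell population. The comparison of loci of IgG alone with those of testicular input alone was made within libraries. The score threshold moved the shares most. With background peaks of score at least 100, loci of all 3 lists made up 45.4% of loci, 83.7% of IgG peaks were in testicular input, 67.4% of testicular input peaks were in spermatocyte input, LINE elements made up 10.6% of testicular input peaks and rRNA repeats 10% of IgG peaks. With each list limited to its 1422 highest scores, the first 3 of these were 29.9%, 66.0% and 59.7%, and the LINE share 15.7%. With all chromosomes and contigs they were 21.1%, 66.9% and 37.3%, the rRNA share was 3.17% and the median score of testicular input peaks alone was 61.3. All 35 named loci kept their class with 50% of the shorter peak overlapped. The difference between loci of IgG alone and of testicular input alone in SPEN libraries was 1.35 points with 50% overlap (exact permutation p = 0.104), 1.79 with the internal antibody only (0.0508) and 1.72 without the longest lists (0.0615), and 1.32 to 2.10 with each library left out. The difference between loci of testicular input alone and of spermatocyte input alone was 16.4 points on all chromosomes and contigs (exact permutation p = 0.00385), against 5.12 on chromosomes 1 to 19, and 1.06 to 10.5 with each library left out. On all chromosomes, the Y held 558 IgG peaks, 678 testicular input peaks and 45 spermatocyte input peaks. Counting SPEN peaks of score at least 100, 1 chromosome (chromosome 10) passed in place of 4, chromosome 14 differed by 0.22 points and the 10 windows by 0.072 points. Leaving out each library gave 0.98 to 1.58 points for chromosome 14 and 1.10 to 1.52 for the windows, with unadjusted exact permutation p of at most 0.011 and 0.0132. The cause of these changes was not tested. Unknown depth limits any reading of list length.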

Other observations

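A pair of LTR families beyond IAP were listed in the testicular backgrounds more than in spermatocyte input. RLTR45-int annotated 12 IgG peaks, 11 testicular input peaks and 3 spermatocyte input peaks, none of them in loci of all 3 lists. MMERVK10C-int annotated 3, 8 and 0 in the same order. Their exact 95% intervals overlapped between the inputs for both families, at 0.558% (0.279 to 0.996) against 0.211% (0.0435 to 0.615) for RLTR45-int and 0.406% (0.175 to 0.798) against 0% (0 to 0.259) for MMERVK10C-int. Both were picked after their values were seen.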
